A study of Arabidopsis thaliana with 4 samples.

Results

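NDB1, NDB2, NDB3 and NDB4 are the Arabidopsis thaliana genes of the external type II NAD(P)H dehydrogenases. They were picked by gene, from the platform annotation, with earlier results of these data known. The count of members that rose is therefore not independent evidence. NDB1 is AT4G28220 (probe set 253810_at), NDB2 is AT4G05020 (255259_at), NDB3 is AT4G21490 (254419_at) and NDB4 is AT2G20800 (265422_at). Each gene had 1 probe set, which gives 4 probe sets of the 22746 tested and 4 loci of the 13286 named. No probe set of the 4 has the kind of name Affymetrix gives when probes also match another transcript. The css1 mutant was compared with the wild type (WT, Columbia accession), with 2 arrays per genotype from independent RNA samples of whole seedlings. All seedlings were 9 days old and had grown in continuous light (80 µmol photons per square metre and second) on B5 medium with 0.8% agar and 2% sucrose. The gene affected in css1 is not named in the labels. From earlier work the mutant is known for a defect in a nuclear maturase that acts on mitochondrial introns. The allele and its transcript are not analysed here.

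Plant mitochondria hold, beside the proton-pumping complex I, a set of type II NAD(P)H dehydrogenases that pass electrons from NADH or NADPH to ubiquinone without pumping protons. The NDB proteins sit on the outer face of the inner membrane, where they oxidise pyridine nucleotides of the cytosol, whereas the NDA proteins face the matrix. Together with alternative oxidase, which passes electrons from ubiquinone to oxygen, they form a respiratory path that does not conserve energy. NDB1 is known as a calcium-dependent NADPH dehydrogenase, NDB2 as a calcium-stimulated NADH dehydrogenase and NDB4 as an NADH dehydrogenase that does not need calcium. Transcripts of NDB2 are known to rise with those of alternative oxidase when respiration is impaired.

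NDB2 and NDB4 rose in css1, and NDB1 and NDB3 did not pass the test. The transcript signal of NDB4 was 2.1-fold that of WT and the signal of NDB2 was 2.03-fold that of WT. The signals of NDB3 and NDB1 were 1.19 and 1.15 times those of WT. Thus 2 of 4 members rose and 0 fell, while 7.63% of all probe sets were called higher and 8.01% lower by the same test (limma over all probe sets, called at a Benjamini-Hochberg adjusted p under 0.05). The median difference of the 4 members was 0.64 on the log2 scale, beside −0.03 over all probe sets tested. The css1 arrays both lay above both WT arrays for 4 of 4 members, which also held for 26.6% of all probe sets. The number of calls among the 4 members was 2 under every alternative tried.

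Facts of the arrays as a whole bear on how these values are read. Values are log2 signals, and array medians lay between 6.32 and 6.37. In all 3559 probe sets passed (15.6%). That number was 659 without css1 replicate 1, 560 without css1 replicate 2 and 2227 without WT replicate 2. The median SD over probe sets was 0.067 in css1 and 0.086 in WT, and the median standard error of a difference was 0.10. Few tissue markers could be named: 2 of 20 for green shoot tissue (LHCB4.1 and RCA), 3 of 14 for root, 0 of 8 for seed and 0 of 7 for flower. The shoot markers had high signals on every array, with list medians of 13.33 and 13.27 in css1 and 13.38 and 13.55 in WT, and neither passed the test. Of the root markers, PYK10 rose (log2 difference 0.50, limma adjusted p = 0.0199), while the root hair expansin genes EXPA7 (−0.33) and EXPA18 (−0.51) did not pass. The log2 of the summed linear signal of the shoot list was 14.34 and 14.28 in css1 and 14.41 and 14.56 in WT. That of the root list, which is nearly all PYK10, was 12.76 and 12.65 in css1 and 12.26 and 12.23 in WT. The medians of the root list ran the other way, with 6.78 and 6.81 in css1 and 7.32 and 6.96 in WT. In whole seedlings, a change in the share of cells that express a gene and a change in RNA per cell cannot be told apart. The part of tissue make-up in the NDB results was not tested.

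NDB4, the calcium-independent NADH dehydrogenase, rose in css1. Its log2 signal was 6.11 in css1 replicate 1 and 5.98 in css1 replicate 2, against 4.96 in WT replicate 1 and 4.98 in WT replicate 2. The WT arrays were nearly equal, the css1 arrays lay a little further apart, and the groups were separated by a gap of 0.99 log2 units. The means were 6.04 ± 0.09 in css1 and 4.97 ± 0.02 in WT (SD, n = 2 each). The difference was 1.07 (SE 0.09, 95% interval 0.85 to 1.30, limma adjusted p = 0.00319), an interval of 1.80-fold to 2.46-fold. Of the 22746 probe sets, 332 (1.46%) had a larger css1 minus WT difference. The WT signal was low on these arrays: the 30th percentile of mean signal over all probe sets was 4.73. Without each array in turn the difference lay between 1.01 and 1.14 (limma adjusted p 0.0121 to 0.0327).

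NDB2, the calcium-stimulated NADH dehydrogenase, had log2 signals of 7.43 and 7.21 on the css1 arrays, against 6.35 and 6.24 on the WT arrays. Replicate 1 was the higher array in each genotype, and the lowest css1 value lay 0.86 above the highest WT value. The means were 7.32 ± 0.15 in css1 and 6.30 ± 0.08 in WT (SD, n = 2 each). NDB2 had the largest css1 SD of the 4 members, and 16.7% of all probe sets had an SD in css1 at least as large. The difference was 1.02 (SE 0.11, 95% interval 0.75 to 1.29, limma adjusted p = 0.00567), an interval of 1.68-fold to 2.44-fold, and 363 probe sets (1.6%) had a larger one. It ranged from 0.91 without css1 replicate 1 to 1.13 without css1 replicate 2, and its limma adjusted p reached 0.0438 without css1 replicate 1, near the threshold.

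NDB3, a member whose enzyme activity is less well described, had log2 signals of 5.71 and 5.75 in css1, against 5.45 and 5.51 in WT. The arrays of each genotype were close together and the groups did not overlap, with a gap of 0.20. The means were 5.73 ± 0.03 in css1 and 5.48 ± 0.05 in WT (SD, n = 2 each). The difference was 0.25 (SE 0.09, 95% interval 0.04 to 0.47, limma adjusted p = 0.102). Its unadjusted p of 0.0256 was below 0.05, as it was, in the higher direction, for 14.3% of all probe sets. At the standard error of NDB3 a difference of 0.34 would have been needed to pass over all probe sets.

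NDB1, the calcium-dependent NADPH dehydrogenase, had log2 signals of 6.84 and 6.75 in css1, against 6.67 and 6.51 in WT. The lowest css1 value lay 0.09 above the highest WT value, less than the 0.11 SD of the WT arrays. The means were 6.80 ± 0.06 in css1 and 6.59 ± 0.11 in WT (SD, n = 2 each). The difference was 0.21 (SE 0.10, 95% interval −0.03 to 0.45, limma adjusted p = 0.213), and 17.8% of all probe sets had a larger one. An observed difference of 0.39 would have been needed to pass at the standard error of NDB1. That value holds for this standard error and is no bound on the true difference. The 27 Bacillus poly-A control probe sets, which are spiked-in RNAs and no plant genes, had a median css1 minus WT difference of 0.23, with 26 of 27 above 0. These controls hold several probe sets per transcript, so they are not 27 independent measures. Their array medians were 5.35 and 5.26 in css1 and 4.89 and 5.23 in WT, so WT replicate 1 was the low array. The 18 hybridisation controls had a median difference of 0.00. The differences of NDB1 and NDB3 were about the size of the shift of the poly-A controls, and those of NDB2 and NDB4 were above the highest single poly-A control (0.58). The part of that shift in the NDB values was not tested.

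**Figure D1:**
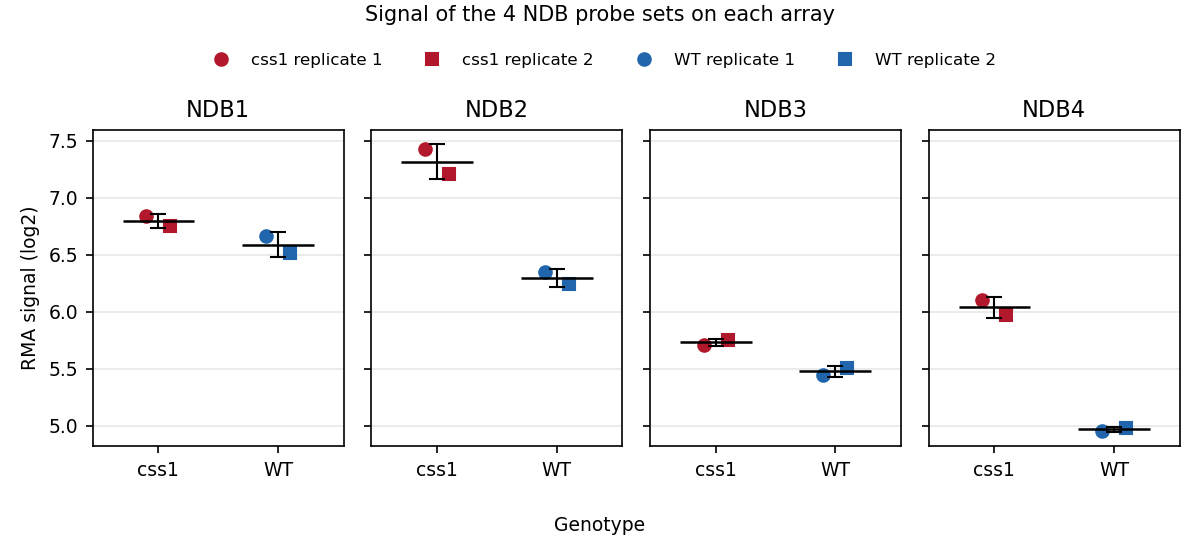
RMA signal on the log2 scale (vertical axis) of NDB1, NDB2, NDB3 and NDB4 by genotype (horizontal axis), with circles for replicate 1 and squares for replicate 2; the horizontal line is the mean and the error bar the SD of the 2 arrays. The css1 arrays lie above the WT arrays in each panel, by a gap of 0.99 for NDB4, 0.86 for NDB2, 0.20 for NDB3 and 0.09 for NDB1; signals are not comparable between genes, since each probe set binds differently.

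The members were then compared with one another, by taking the log2 signal of one gene minus that of another on the same array. This removes any shift that an array gives to both genes alike. NDB4 minus NDB3 was 0.39 and 0.22 on the css1 arrays and −0.49 and −0.53 on the WT arrays, and was thus higher on both css1 arrays than on both WT arrays. The css1 minus WT difference of NDB4 thus exceeded that of NDB3 by 0.82 (95% interval 0.51 to 1.13). It exceeded that of NDB1 by 0.87 (0.54 to 1.19), with within-array values of −0.74 and −0.78 in css1 and −1.71 and −1.53 in WT.

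NDB2 stood apart from the same pair of genes. NDB2 minus NDB1 was 0.59 and 0.46 on the css1 arrays and −0.31 and −0.27 on the WT arrays, a difference of 0.81 (95% interval 0.45 to 1.17). NDB2 minus NDB3 was 1.71 and 1.46 in css1 and 0.91 and 0.73 in WT, a difference of 0.76 (0.42 to 1.11). These 4 intervals lay above 0. They rest on limma's standard errors of both genes taken as independent.

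No difference in response was resolved between the NADH dehydrogenase genes NDB4 and NDB2, or between NDB3 and NDB1. NDB4 minus NDB2 was −1.32 and −1.23 in css1 and −1.40 and −1.26 in WT, a difference of 0.05 (95% interval −0.30 to 0.40) with overlapping arrays. NDB3 minus NDB1 was −1.13 and −1.0 in css1 and −1.22 and −1.0 in WT, a difference of 0.05 (−0.27 to 0.37). The intervals leave room for a difference of up to 0.40 log2 units in the first pair and 0.37 in the second. Over the 6 pairs, the exact two-sided permutation test gave p = 0.333 for the 4 separated pairs and p = 0.667 for the other 2, and after Benjamini-Hochberg adjustment the exact p were 0.5 and 0.667. With 2 arrays against 2, 0.333 is the smallest p the permutation test allows.

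**Figure D2:**
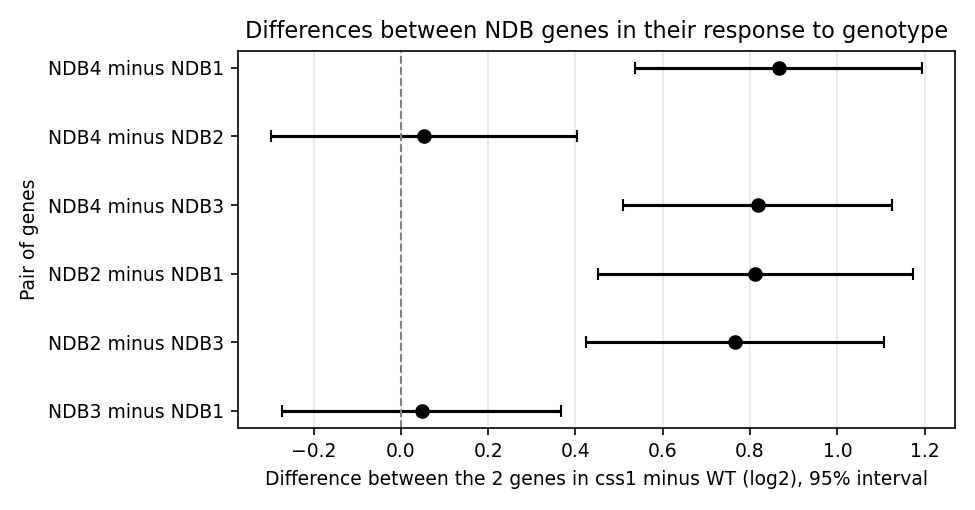
Difference between 2 NDB genes in their css1 minus WT value (horizontal axis, log2), with its 95% interval, for the 6 pairs (vertical axis). The 4 pairs that set NDB4 or NDB2 against NDB1 or NDB3 lie between 0.76 and 0.87 with intervals above 0, and the pairs NDB4 minus NDB2 and NDB3 minus NDB1 both lie at 0.05 with intervals that include 0.

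Which replicate of a genotype had the higher signal differed between the 4 genes. Within css1, replicate 1 was higher than replicate 2 for NDB1, NDB2 and NDB4 and lower for NDB3. Within WT, replicate 1 was higher for NDB1 and NDB2 and lower for NDB3 and NDB4. The cases with replicate 1 lower were small, with an SD of 0.03 for NDB3 in css1. In WT the SD was 0.05 for NDB3 and 0.02 for NDB4. The median SD over probe sets was 0.067 in css1 and 0.086 in WT. Across the 4 arrays, with each gene centred on its own mean, the root mean square difference between NDB4 and NDB2 was 0.06 log2 units and that between NDB3 and NDB1 was 0.09. Between members of different pairs it was 0.40 to 0.44. These values follow mostly from the same css1 minus WT differences that set the pairs apart, so they are no separate evidence of a grouping.

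Among 13216 other nuclear loci, the profile most like that of NDB4 over the 4 arrays was that of XTH18, a xyloglucan endotransglucosylase gene, with a root mean square difference of 0.02 log2 units. XTH18 had 8.07 and 7.97 in css1 and 6.95 and 6.93 in WT. AT5G02050 (0.03) and AT2G31730 (0.06) came next. For NDB2 the nearest were AT2G35480, AT1G33265 and AT1G33260, each at 0.05, and all 3 passed the test with differences of 0.95 to 1.0. The nearest profiles were thus further from NDB2 than the first 2 were from NDB4. For NDB3 the nearest were AT1G30070, AT2G33520 and AT5G44310, and for NDB1 they were AT1G33590, AT1G42650 and MAB1, a pyruvate dehydrogenase subunit gene, all at 0.01 or less. None of those 6 passed. Since each locus was picked for its likeness to a member on these arrays, its call largely follows from that member's call and is no further result. With 4 arrays and this many loci, close matches are found for small differences in particular, and this likeness is a description only.

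Genes that lie next to the members in the genome were looked up by their order in the RefSeq annotation, in the 3 protein-coding places on each side. Those named here were chosen after their values were seen. Near NDB4, 3 of 6 places had a named probe set and 0 of these passed, with differences from −0.15 to 0.14. Near NDB2, 2 of 6 were measured: AT4G05030 fell (−0.36, limma adjusted p = 0.0460) and AT4G05040 did not pass (−0.07). The measured neighbours of the 2 genes that rose therefore had differences at or below 0.14. Near NDB3 the 1 measured neighbour did not pass (−0.27), and near NDB1, 2 of 5 fell, AT4G28240 (−1.15, limma adjusted p = 0.00360) and the beta-expansin gene EXPB3 (−0.66, limma adjusted p = 0.0170). By the same test 15.6% of all probe sets passed, 7.63% higher and 8.01% lower. With so few neighbours measured, these counts are a description only.

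The rest of the alternative respiratory path could be followed only in small part. Of 14 other listed genes, which cover the matrix-facing NDA dehydrogenases, the alternative oxidases, the uncoupling proteins and the plastid terminal oxidase, 1 had a named probe set. This was NDC1, the type II dehydrogenase found in plastids and mitochondria. Its log2 signals were 7.10 and 7.20 in css1, against 7.12 and 7.33 in WT, and the groups overlapped. The difference was −0.07 (SE 0.11, limma adjusted p = 0.696). The other 13 genes, including NDA1, NDA2 and the alternative oxidase AOX1A, are not analysed here.

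Most measured marker genes of mitochondrial dysfunction, a response to which NDB2 also belongs, rose in css1. Of 23 listed genes besides NDB2, 12 were measured, of which 10 rose, 0 fell and 2 did not pass, with a median log2 difference of 1.46, beside 7.63% called higher over all probe sets. The calls numbered 7 without css1 replicate 1, 8 without css1 replicate 2 or WT replicate 1, and 7 with the replicate number as a block. UPOX, a marker of mitochondrial oxidative stress, had 8.46 and 8.97 in css1, against 4.81 and 5.05 in WT (difference 3.78, limma adjusted p = 8.54e-04). AT12CYS-2, which encodes a twin cysteine protein, rose by 2.87 (limma adjusted p = 4.69e-04), and the mitochondrial small heat shock protein gene HSP23.5 by 2.78 (limma adjusted p = 8.54e-04). The rise of AT1G24095, an oxidoreductase-type gene, was 1.43 (limma adjusted p = 0.00137). Against these, the difference of NDB2 (1.02) was next to that of AT2G32020, an acetyltransferase-type gene (1.01), which was chosen after its values were seen. The list was drawn up with results of these arrays known, so its direction is not independent evidence.

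Nuclear genes of the proton-pumping complex I rose in part, by a count that changed with the setting. Of 46 listed genes 29 were measured, and 6 rose, 0 fell and 23 did not pass, beside 7.63% higher over all probe sets. Differences were above 0 for 28 of the 29. Over all probe sets the median difference was −0.03, and 0.015 with each array centred on its median. This list too was drawn up with results of these arrays known, so its direction is not independent evidence. The median difference of the complex I list was 0.29 and the range ran from −0.003 to 0.61. No measured complex I gene thus reached the differences of NDB2 or NDB4. The subunit genes AT2G31490 (0.61, limma adjusted p = 0.0144), AT2G47690 (0.57, limma adjusted p = 0.0159), AT1G14450 (0.49, limma adjusted p = 0.0178) and AT3G06310 (0.58, limma adjusted p = 0.0183) rose. NDB1 and NDB3, at 0.21 and 0.25, lay below the median of this list. Leaving out css1 replicate 1 or css1 replicate 2 brought the calls in this list to 0, leaving out WT replicate 2 to 3, and using the replicate number as a block to 0. The calls numbered 11 with each array centred on its median, 11 with the filter on dim probe sets and 12 with a trended prior.

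Most measured genes whose enzymes reduce NAD or NADP, mostly in the cytosol where the NDB proteins take their substrate, did not pass. The same held for the arrays as a whole, where 15.6% of all probe sets passed. Of 15 listed genes, 7 were measured, of which 1 rose, 1 fell and 5 did not pass, beside 7.63% higher and 8.01% lower over all probe sets. The median difference was 0.03. The Arabidopsis glyceraldehyde phosphate dehydrogenase control probe sets were left out of the tests and of this list. Their css1 minus WT differences ran from 0.51 to 0.65, and they were chosen after their values were seen. The listed cytosolic glyceraldehyde phosphate dehydrogenase gene GAPC2, named here beside them, was at 0.03 and did not pass (limma adjusted p = 0.849). PGD3 (AT5G41670), for a 6-phosphogluconate dehydrogenase that makes NADPH, rose by 0.59 (limma adjusted p = 0.0177), and FDH, for the mitochondrial formate dehydrogenase that makes NADH, was lower by a log2 difference of −0.39 (limma adjusted p = 0.0415). The related PGD2 (AT3G02360) was at 0.34 (limma adjusted p = 0.0542) and the cytosolic isocitrate dehydrogenase gene cICDH at −0.17 (limma adjusted p = 0.228). Calls of this list numbered 0 without css1 replicate 1, without css1 replicate 2 and without WT replicate 2.

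**Figure D3:**
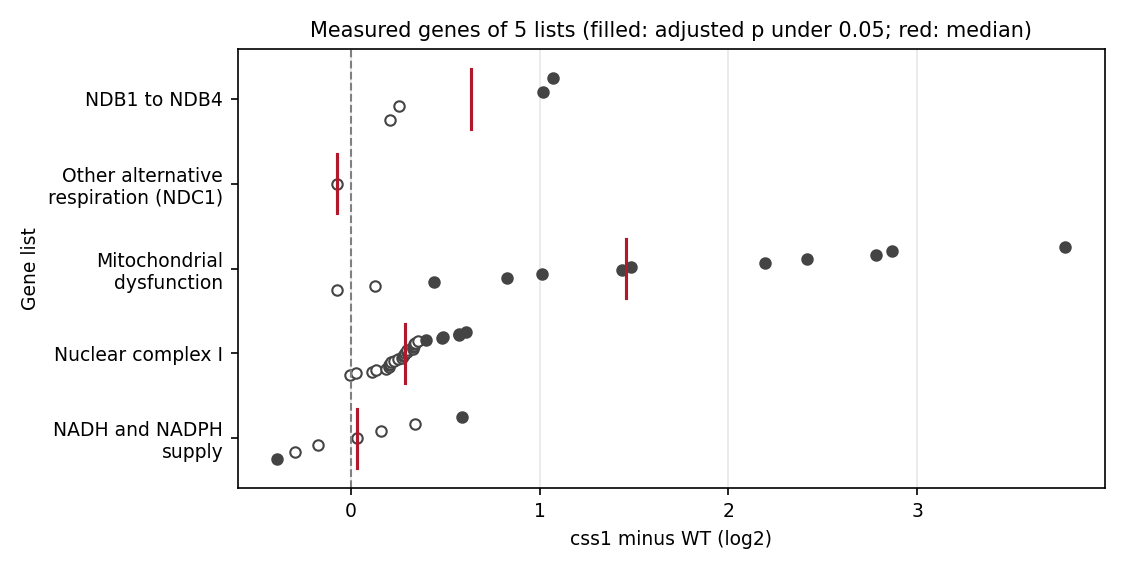
Difference css1 minus WT on the log2 scale (horizontal axis) of each measured gene of 5 lists (vertical axis), with filled points for genes at an adjusted p under 0.05, open points for the others and a red line at each list's median. NDB2 and NDB4 lie above 1, within the range of the mitochondrial dysfunction genes (median 1.46) and above all 29 complex I genes (highest 0.61), while NDB1 and NDB3 lie below the complex I median of 0.29.

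The split between the 2 pairs of NDB genes was the same under each setting tried. NDB2 and NDB4 passed in every one of 13 alternatives and NDB1 and NDB3 in none, as the plot of differences by setting shows. Over these alternatives NDB4 lay between 1.01 and 1.14, NDB2 between 0.91 and 1.13, NDB3 between 0.22 and 0.30 and NDB1 between 0.13 and 0.28.

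**Figure D4:**
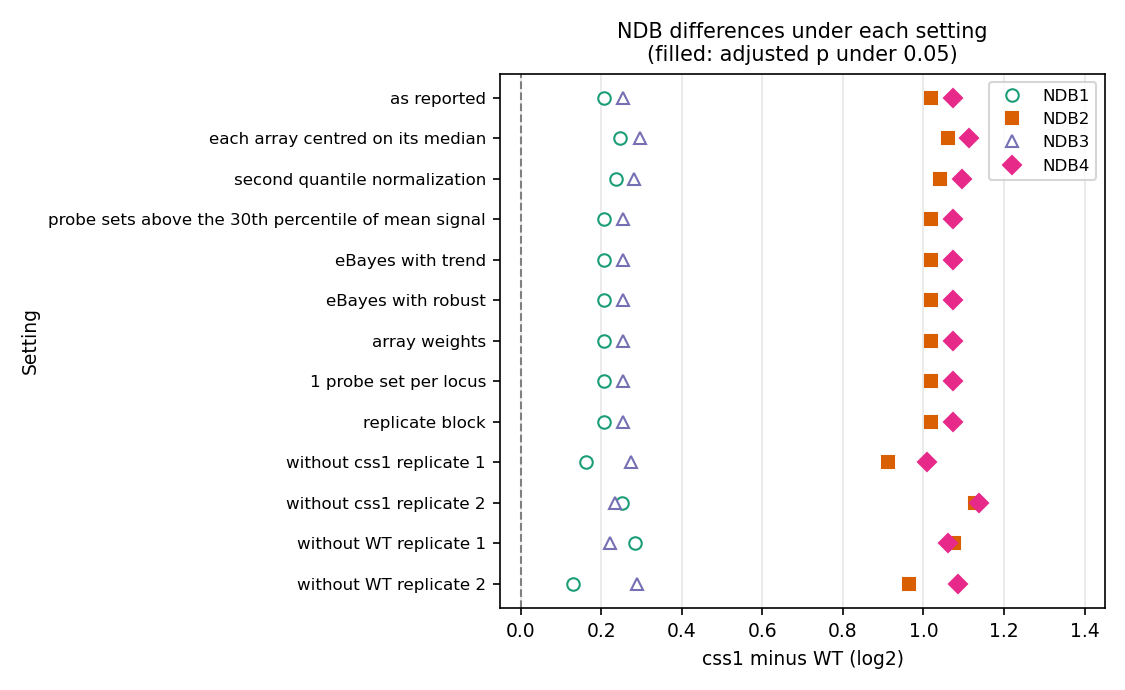
Difference css1 minus WT on the log2 scale (horizontal axis) of NDB1, NDB2, NDB3 and NDB4 under each processing setting and with each array left out (vertical axis), with filled symbols where the limma adjusted p was under 0.05. NDB2 and NDB4 stay at 0.91 or above and filled on every row, and NDB1 and NDB3 stay at 0.30 or below and open.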

How the data were processed

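For 22810 probe sets the authors deposited log2 signals, which they computed by RMA (per the submitters' processing notes) from biotin-labelled cRNA (250 ng of total RNA) per the labels' protocols. The RMA version is not given in the sources used. The tests left out 64 Affymetrix controls, and no further logarithm or scaling was applied. Probe sets were named from the platform annotation and joined to RefSeq loci by gene ID (13436 of 13513 with 1 gene). A locus with several probe sets was represented by the one with the highest mean. No coordinates or sequences are given.

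css1 was compared with WT with R 4.3.3 and its package limma 3.58.1 (functions lmFit and eBayes on all 4 arrays, two-sided, genotype as the term) with Benjamini-Hochberg adjustment over 22746 probe sets. Differences between members were tested by exact permutation over arrays. Precision is limited by the number of arrays. The labels call the samples biological replicates. Named genes were the 4 members, the measured genes of the alternative respiration list, up to 4 of each other pathway list with the smallest p, and the 3 loci most like each member. Members and lists were chosen with earlier results of these data known.

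The alternatives were median centring, a second quantile normalization, a filter at the 30th percentile, eBayes with trend or robust, array weights, a block for the replicate number, 1 probe set per locus, an adjusted p under 0.01, and each array left out. The labels state no pairing, so the replicate numbers were not taken as pairs. As a description, the deviations of same-numbered arrays had a correlation of −0.01.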

Additional observations from a re-analysis of the deposited data

How the results depend on the processing

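The 4 NDB differences kept their direction and their side of the threshold under all 13 alternatives. The direction could change only with centring, with the second quantile normalization or with an array left out. The other alternatives gave the same differences as reported and bear only on the threshold. With the replicate number as a block, the limma adjusted p of both NDB2 and NDB4 was 0.0338 and the count of members was still 2. Leaving out an array assumes that the single array kept for that genotype varies like the other genotype. NDB4 then ran from 1.01 to 1.14, NDB2 from 0.91 to 1.13, NDB3 from 0.22 to 0.29 and NDB1 from 0.13 to 0.28. The smallest pair differences changed sign: NDB4 minus NDB2 ran from −0.015 (without WT replicate 1) to 0.12, and NDB3 minus NDB1 from −0.063 (without WT replicate 1) to 0.16, with −0.017 without css1 replicate 2. NDC1 ran from −0.17 to 0.028 (without WT replicate 2). The cause was not tested. Over all probe sets there were 3559 calls, 1264 with the replicate block, 1808 with 1 probe set per locus (fewer tested), 773 at an adjusted p under 0.01 and 560 to 3079 with an array left out. Calls among complex I genes were 11 with centring, 11 with the filter, 12 with trend, 0 with the replicate block, 0 at an adjusted p under 0.01 and 0 to 5 with an array left out. Those among the mitochondrial dysfunction genes were 7 with the block, 7 at an adjusted p under 0.01 and 7 to 9 with an array left out. For the NADH and NADPH supply list they were 1 with the block, 0 at an adjusted p under 0.01 and 0 to 2 with an array left out. With centring, 2069 probe sets were higher and 1497 lower, against 1736 and 1823 as reported.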
